A study of Drosophila melanogaster with 4 samples.

Results

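Combined depletion of Cdk8, Cyclin C and Med12 was compared with control in the wing imaginal disc of Drosophila melanogaster, the larval epithelium that gives rise to the adult wing. The comparison covered the genes that the authors' deposited tables list both for the combined depletion (6377 genes) and for the control (5524 genes). There were 4973 such genes, of 7451 listed for any of the 4 genotypes of the series, and 4835 of them were detected in at least 10% of cells of one cell set. The combined-depletion discs were ap-Gal4>GFP/+; UAS-Cdk8i-cycCi-Med12i/+ and the control discs were ap-Gal4>GFP/+, each with 1 droplet-based single-cell library of L3 discs pooled from 100 to 120 discs. Both genotypes thus carried a single copy of the ap-Gal4 driver and GFP, and the control carried no RNA interference construct. Values within a Med12 depletion library (ap-Gal4>GFP/+; UAS-Med12i/+) and a Cdk8-CycC depletion library (ap-Gal4>GFP/+; UAS-Cdk8i-cycCi/+) are given for a few genes. The ap-Gal4 driver acts in the dorsal compartment, so the GFP-positive cells are taken as the dorsal cells that expressed the constructs, and the GFP-negative cells of the same discs served as the internal comparison.

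The Mediator complex passes signals from transcription factors to RNA polymerase II. Its kinase module binds Mediator reversibly and can either repress or activate transcription. The module consists of the kinase Cdk8, its partner Cyclin C, and the large subunits Med12 and Med13, whose fly genes are named kto and skd. In the fly wing disc Med12 and Med13 are known from roles in patterning and cell affinity, and in fly tissues Cdk8 and Cyclin C are known to limit lipid synthesis.

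For each gene and library the log2 ratio of mean expression in GFP-positive over GFP-negative cells was taken from the deposited fold, and the value of the control was subtracted from that of the combined depletion. This is called the mean difference. The same was done with the share of cells in which a gene was detected, which gives the detection difference, also in log2. A gene was counted as higher or lower when a difference reached a factor of 1.3, which is 0.38 in log2. With 1 library per genotype there is no replicate and no test, so every count below is by size alone and every statement compares these libraries. Detection was higher in both cell sets of the depletion library, with median shares over the compared genes of 52.7% and 36.9% in its GFP-positive and GFP-negative cells, against 33.9% and 23.6% in the control. More GFP-positive than GFP-negative cells held a transcript for 99.8% of genes in the combined depletion and for 99.4% in the control, so an excess of detection in GFP-positive cells was common to both libraries. The part of this higher detection in the results was not tested, and depth itself is unknown.

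The cells are taken as those of the wing pouch, the region that forms the wing blade. The pouch gene nub was detected in 100% of both cell sets in each of the 4 libraries. Selection of cells on nub would fix this share in advance, and the cell filters were not given. The share can therefore not show by itself that the cells are of the pouch. Genes of the hinge were detected as well. In the combined depletion hth was found in 88.8% and 81.8% of GFP-positive and GFP-negative cells, zfh2 in 61.4% and 57.6%, and ct in 17.8% and 10.1%. The part of hinge cells among those described was not tested. The dorsal selector gene ap was detected in 68.1% of the GFP-positive cells and 6.9% of the GFP-negative cells of the combined depletion, against 62.6% and 5.3% in the control. None of 8 hemocyte markers was listed for either library, nor were the glial gene repo and the myoblast gene twi. Of 4 glial and 7 myoblast markers, 2 each were compared, as given below. Every listed gene had passed a limit in the authors' contrast between the cell sets, so an unlisted marker was not shown to be absent. A mean over a set of cells can move because each cell holds more transcripts or because the mix of cells differs, and these cannot be told apart in the tables.

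The targeted genes were among the 4 genes with the lowest detection differences. Cdk8, the kinase, was detected in 16.8% of the GFP-positive cells and 21.5% of the GFP-negative cells of the combined depletion, against 18.9% and 11.0% in the control. CycC, its cyclin partner, was detected in 32.8% and 48.0%, against 43.2% and 32.4% in the control. For kto the shares were 35.0% and 45.4%, against 38.6% and 28.6% in the control. In each case the depleted cells were the lower set in the depletion library and the higher set in the control. The detection differences were -1.14 for Cdk8 and -0.96 for CycC, the lowest of 4833 genes with a defined value, and -0.81 for kto, the fourth lowest. The mean differences were smaller, at -0.10, -0.21 and -0.20 for Cdk8, CycC and kto. The remaining subunit, skd, was listed for the depletion library only, where it was detected in 93.4% of the GFP-positive cells and 85.9% of the GFP-negative cells with a log2 ratio of means near 0.

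**Figure D1:**
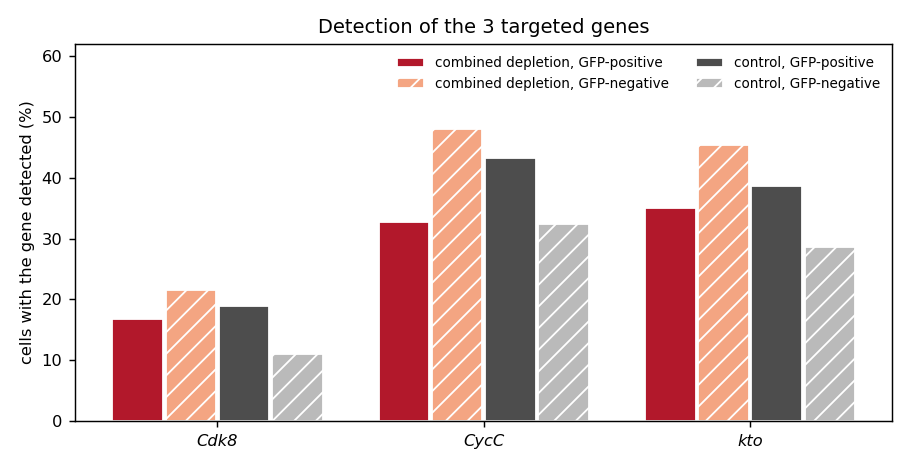
Share of cells (%) in which each targeted gene was detected, in GFP-positive and GFP-negative cells of the combined depletion and of the control, 1 library each and no error bars. For Cdk8, CycC and kto the GFP-positive bar is the lower of its pair in the combined depletion and the higher of its pair in the control.

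Of 25 genes for subunits of the Mediator core 20 were compared, 15 with a mean difference above 0 and 5 below, and the median was 0.01. By detection 8 lay above 0 and 12 below, with a median of -0.06. None reached the factor of 1.3 on either measure. The mean differences were lowest for MED22 (-0.07) and MED14 (-0.07) and highest for MED25 (0.08).

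Most genes had a small positive mean difference. The median over 4835 genes was 0.02, the central 95% lay between -0.08 and 0.16, and 3448 genes (71.3%) lay above 0. By size 10 genes were higher, which is 0.207% of those compared, and 10 were lower, again 0.207%. In the sign of the ratio itself, 2196 genes were higher in GFP-positive cells of both libraries and 678 were lower in both. A further 1526 genes were higher in GFP-positive cells of the combined depletion and lower in those of the control, against 435 with the opposite signs. The values just inside and just outside the threshold were close to each other. E(spl)m4-BFM, the last of the lower genes, was at -0.38 and CG8372 followed at -0.34. Cht10, the last of the higher genes, was at 0.38 and CG3328 followed at 0.35.

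**Figure D2:**
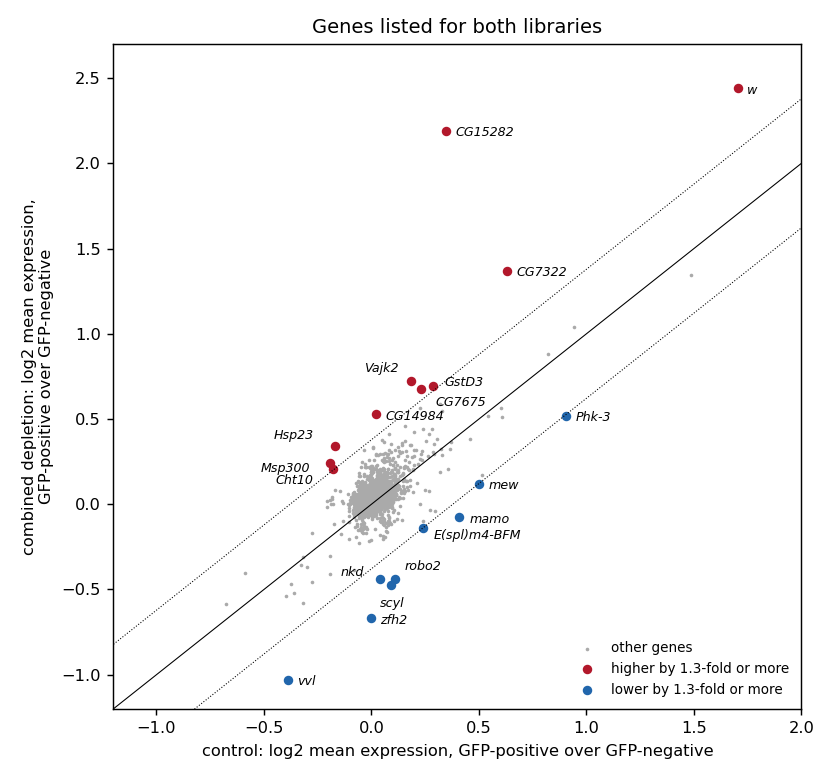
Log2 ratio of mean expression, GFP-positive over GFP-negative cells, in the combined depletion (vertical axis) and in the control (horizontal axis) for the genes listed in both tables, with dotted lines at a 1.3-fold difference from the diagonal. Red points are higher and blue points lower in the combined depletion. GFP is left out and Ubx lies beyond the axes.

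Several of the higher genes were already biased to GFP-positive cells in the control. CG15282 had a log2 ratio of means of 2.19 in the combined depletion and 0.35 in the control, a mean difference of 1.84, the highest of all genes. It was detected in 79.1% of the GFP-positive cells and 36.1% of the GFP-negative cells of the combined depletion, against 37.6% and 21.7% in the control. CG7322 had ratios of 1.37 and 0.63, a difference of 0.74, and was detected in 73.3% and 14.6% of cells of the combined depletion, against 44.8% and 8.6% in the control. The share in GFP-positive cells was therefore higher for both genes in the depletion library, but for CG7322 the share in GFP-negative cells was higher in proportion, and its detection difference was -0.05. The eye pigment gene w had ratios of 2.44 and 1.71, a difference of 0.73. A setting given below leaves w out as a transgene or driver gene. The genotypes differ in the constructs they carry, and the part of these in the values of w was not tested. Its ratio was 2.42 in the Med12 depletion library and 1.41 in the Cdk8-CycC depletion library. The detection of w was nearly the same in both libraries, at 79.7% and 16% in the combined depletion against 81.6% and 13.9% in the control.

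Hsp23, Msp300 and Cht10 had opposite signs in the libraries. Hsp23, a small heat shock chaperone, had a log2 ratio of 0.34 in the combined depletion and -0.17 in the control, a mean difference of 0.51. It was detected in nearly all cells, at 99.1% and 97.7% in the combined depletion and 98.9% and 98.7% in the control. Msp300, a nesprin that ties nuclei to the cytoskeleton, had ratios of 0.24 and -0.19, a difference of 0.44, and was also detected in over 99% of every set. Cht10, a chitinase, had ratios of 0.20 and -0.18, a difference of 0.38. Its shares were 87.2% and 75.1% in the combined depletion, against 67.2% and 64.7% in the control. Of these genes Hsp23 had log2 ratios of 0.21 in the Med12 depletion library and -0.38 in the Cdk8-CycC depletion library, Msp300 of 0.07 and 0.09, and Cht10 of 0.01 and 0.07. Hsp23, Msp300 and Cht10 thus each had a higher ratio in the combined depletion than in either single depletion, without a replicate for any of them. The same held by a small margin for w and for CG7675, at 0.67 against 0.65 in the Med12 depletion library. It did not hold for CG15282, CG7322, Vajk2, CG14984 and GstD3. Their ratios were 2.20, 1.95, 0.83, 0.57 and 0.72 in the Med12 depletion library, against 2.19, 1.37, 0.72, 0.53 and 0.69 in the combined depletion. Cht10 lay at 0.36, below the threshold, once the median of all genes was subtracted.

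Vajk2 was the only gene higher by size on both measures. Its log2 ratio of means was 0.72 in the combined depletion and 0.19 in the control, a mean difference of 0.54. The shares were 43.2% and 20.2% in the combined depletion, against 23% and 17.1% in the control, a detection difference of 0.67. Its relative Vajk3 followed, with a mean difference of 0.34 and a detection difference of 0.46. Detection of Vajk3 was 37.0% and 17.7% in the combined depletion, against 19.7% and 13.0% in the control. For both genes the GFP-negative shares of the libraries lay closer together than the GFP-positive shares. The other higher genes were CG14984 (0.51), CG7675 (0.44) and GstD3 (0.41), which encodes a glutathione S-transferase. CG3328 (0.35), CG31997 (0.33), the aldo-keto reductase gene Akr1B (0.33) and CG7173 (0.32) came just below the threshold. CG7173 was detected in 70.2% and 40.2% of cells in the combined depletion, against 22% and 16% in the control.

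The lower genes included 3 that encode transcription factors. zfh2, a zinc finger homeodomain factor of the hinge, had a log2 ratio of -0.67 in the combined depletion and near 0 in the control, the lowest mean difference of all at -0.67. It was detected in 61.4% and 57.6% of cells of the combined depletion, against 53.6% and 42.4% in the control. zfh2 transcripts were therefore found in more cells of the depletion library in both sets, and the lower mean came with a smaller gap between the sets. The POU factor gene vvl was lower in GFP-positive cells of both libraries, with ratios of -1.03 and -0.39 and a mean difference of -0.64. Its shares were 91.6% and 94.3% in the combined depletion, against 90.6% and 87.5% in the control. mamo, a zinc finger factor gene, had ratios of -0.08 and 0.41, a difference of -0.48, with detection in only 12.7% and 6.9% of cells of the combined depletion and 11.7% and 6.3% in the control.

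Another 4 of the lower genes encode parts of signalling pathways, each the only member of its list past the threshold by mean. scyl, an inhibitor of TOR signalling, had log2 ratios of -0.47 in the combined depletion and 0.09 in the control, a mean difference of -0.56, and was detected in 97.0% or more of every set. robo2, a receptor for the guidance cue Slit, had ratios of -0.44 and 0.11, a difference of -0.55. Its shares were 78.2% and 72.8% in the combined depletion, against 73.9% and 61.0% in the control. nkd, a feedback inhibitor of Wingless signalling, had ratios of -0.44 and 0.04, a difference of -0.48. E(spl)m4-BFM, a target of Notch, had ratios of -0.14 and 0.24, a difference of -0.38, and was detected in 12.7% and 7.3% of cells against 19% and 10.9% in the control. By mean, the GFP-positive cells were the lower set in the depletion library and the higher set in the control for scyl, robo2, nkd and E(spl)m4-BFM. By detection they were the higher set in both libraries for each of these genes. For scyl and robo2 the Med12 depletion library gave ratios of -0.37 and -0.40, and for robo2 the Cdk8-CycC depletion library gave 0.02.

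The remaining lower genes kept a bias to GFP-positive cells in the depletion library. mew, the alpha integrin subunit of dorsal wing cells, had log2 ratios of 0.12 in the combined depletion and 0.50 in the control, a mean difference of -0.38. It was detected in 74.5% and 55.8% of cells of the combined depletion, against 75.9% and 47.1% in the control, so the GFP-positive share was alike and the GFP-negative share was higher in the depletion library. Phk-3 had ratios of 0.52 and 0.91, a difference of -0.39. GFP itself, the driver's reporter, had ratios of 4.28 and 4.90, a difference of -0.62. It was detected in 100% of the GFP-positive and 0% of the GFP-negative cells of both libraries. The bias of GFP is therefore fixed by the definition of the sets, and only its size can differ. CG8372 (-0.34), Ama (-0.34), olf413 (-0.34), CG42747 (-0.31) and the laminin gene wb (-0.30) came next. wb was detected in 35.9% and 25.9% of cells of the combined depletion, against 32.0% and 17.4% in the control, and its detection difference of -0.41 passed the threshold.

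**Figure D3:**
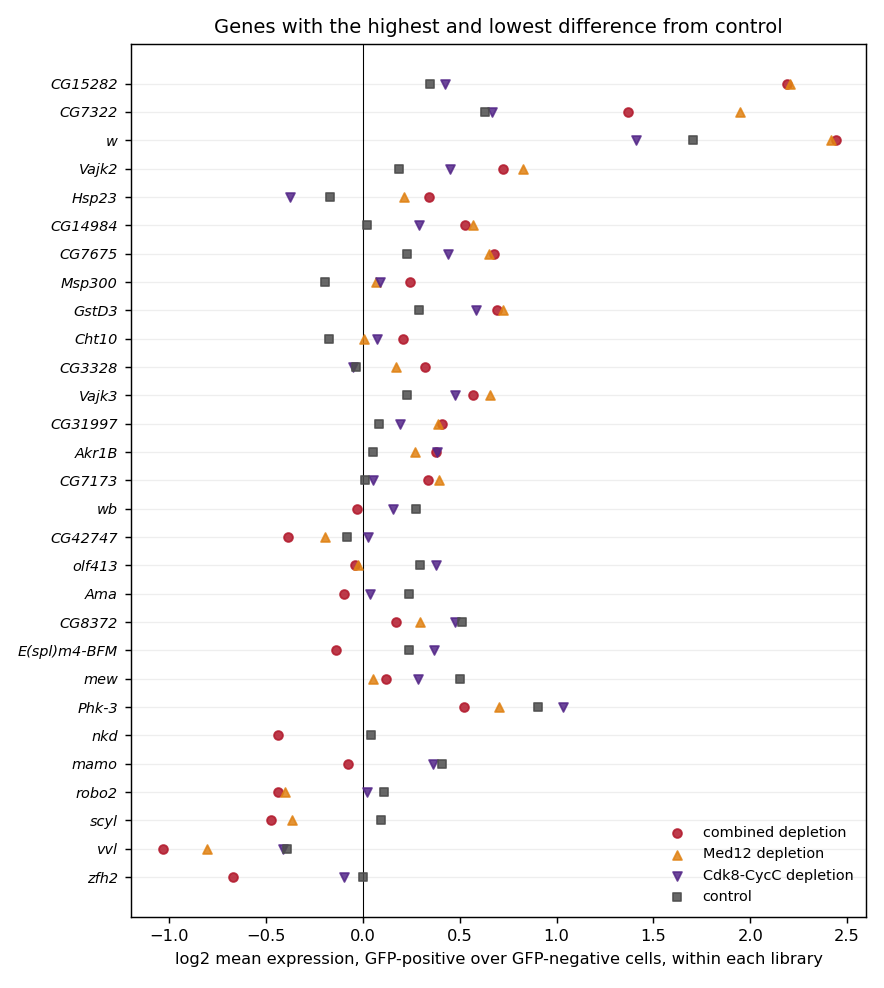
Log2 ratio of mean expression, GFP-positive over GFP-negative cells, within each of the 4 libraries for the 15 highest and the 15 lowest genes by mean difference between combined depletion and control, GFP left out. A gene that a table does not list has no symbol for that library. CG15282 stands at 2.19 in the combined depletion and 0.35 in the control, and vvl at -1.03 and -0.39.

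Detection gave a wider spread than mean expression. The median detection difference was -0.03, the central 95% lay between -0.27 and 0.37, and 1936 genes (40.1%) lay above 0. By size 113 genes were higher, which is 2.34% of those compared, and 33 were lower, which is 0.683%. Vajk2 was higher on both measures and no gene was lower on both. Of the 113 higher genes 106 also had a mean difference above 0, and of the 33 lower genes 32 had one below 0. Across the genes the measures had a Pearson correlation of 0.34 and a Spearman correlation of 0.51 (n = 4833), a description in which the genes share libraries and depth.

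The genes with a high detection difference were mostly rare. Their median shares were 26.5% and 11.3% in the combined depletion, against 12.7% and 8.1% in the control. In 70 of the 113 higher and 22 of the 33 lower genes the control's GFP-negative share was under 10%, which held for 14.6% of all genes compared. Shares are deposited to 0.1%, so a ratio over a share near that step is coarse. CG1139 led with a difference of 2.18, from 19% and 0.2% in the combined depletion against 8.4% and 0.4% in the control. It was followed by CG9312 (1.64), CG43245 (1.58), the neurotrophin gene NT1 (1.57), CG9336 (1.43), the sodium-proton exchanger gene Nhe2 (1.40), Men (1.39), Oseg5 (1.36), CG5281 (1.32) and CG4928 (1.31). Men encodes the malic enzyme, a source of NADPH. It was detected in 24.5% and 6.0% of cells of the combined depletion, against 11.7% and 7.5% in the control. The GFP-positive share of Men was the higher in the depletion library while its GFP-negative share was the lower.

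Some genes with high detection differences had the opposite order of sets in the libraries. Esyt2, an extended synaptotagmin, was detected in 38.8% and 23.2% of cells of the combined depletion, against 6.5% and 8.9% in the control, a difference of 1.2. sona, a secreted metalloprotease, was detected in 62.1% and 41.1%, against 19.1% and 21.8% in the control, a difference of 0.79. The potassium channel gene SK was detected in 42.4% and 31.7%, against 10.7% and 13.6% in the control, a difference of 0.77. In these 3 genes, chosen after their values were seen, both sets of the depletion library exceeded both sets of the control. The median shares over all compared genes had the same order, at 52.7% and 36.9% against 33.9% and 23.6%. This order is therefore not particular to the 3 genes.

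Besides the targeted genes, the 10 lowest detection differences included upd1, which ranked between CycC and kto, and eyg, and 5 further genes known by CG numbers. upd1, a ligand of the JAK/STAT pathway, was detected in 10.1% and 1.4% of cells of the combined depletion, against 5.4% and 0.4% in the control, a difference of -0.90. Its share was higher in both sets of the depletion library, by the larger factor in the GFP-negative cells. eyg, a Pax factor gene of the notum, the dorsal body wall, was detected in 11.5% and 6.1%, against 13.6% and 4.3% in the control, a difference of -0.75. CG42747 (-0.66), CG1662 (-0.53), CG9849 (-0.52), CG34149 (-0.50) and CG3726 (-0.49) followed. CG42747 was found in 35.5% and 42.4% of cells of the combined depletion, against 41.3% and 31.2% in the control, and it shared this reversed order of sets with CG3726 and with the targeted genes.

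**Figure D4:**
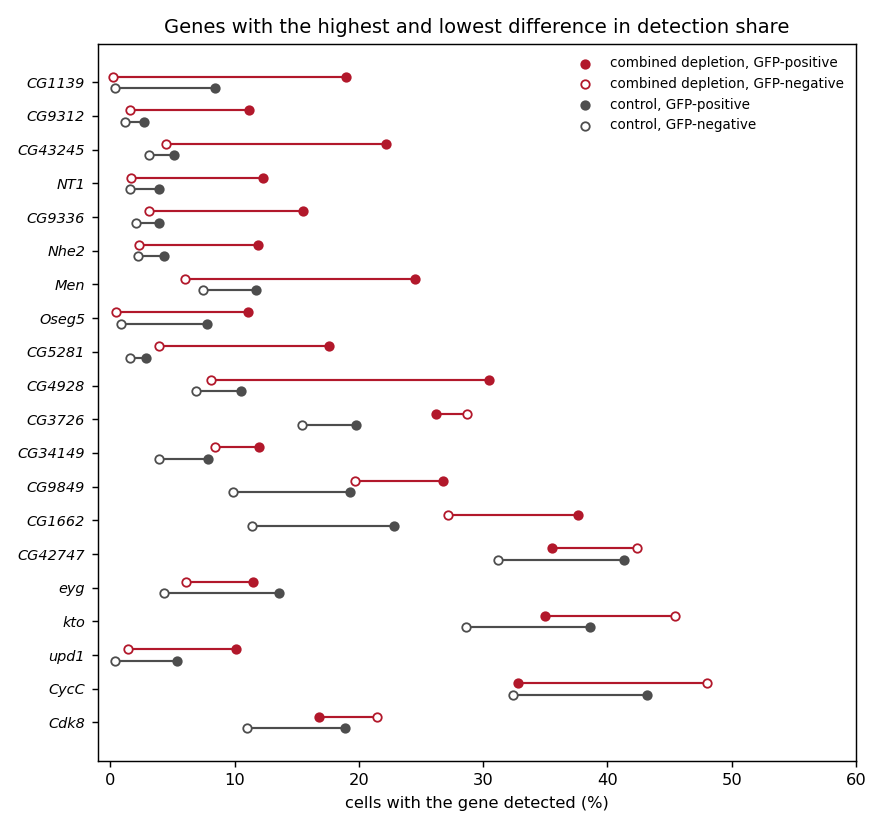
Share of cells (%) with the gene detected, in GFP-positive (filled) and GFP-negative cells (open) of the combined depletion (red) and the control (grey), for the 10 highest and the 10 lowest genes by detection difference, 1 library each. At the bottom, kto, CycC and Cdk8 have the open red symbol to the right of the filled one.

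Gene lists for pathways, disc regions and cell types were then described by counts and medians, which stand beside a median of 0.02 over all genes for the mean difference and -0.03 for the detection difference. Of 44 lists, 39 had at least 3 compared members. The median mean difference was above 0 in 29 of these and below 0 in 10. With the median of all genes subtracted the split was 23 and 16, and by detection difference it was 11 and 28. Small shifts of a list from 0 thus depend on the measure. Detection also depends on the scale, with 875 genes higher by the odds ratio of the shares and 113 by their ratio. The lists were not summarised by the odds ratio.

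Genes of the secretory pathway had the highest median of the lists with more than 3 compared genes. Of 18 compared genes for folding and translocation in the endoplasmic reticulum, 17 lay above 0, with a median mean difference of 0.13. Hsc70-3, the BiP chaperone of the endoplasmic reticulum, had log2 ratios of 0.35 in the combined depletion and 0.09 in the control, a difference of 0.26. wbl, a resident protein of that compartment, had ratios of 0.29 and 0.03, a difference of 0.26. TRAM (0.21) and Sec61alpha (0.17) of the translocation channel, the calnexin gene Cnx99A (0.19), the disulfide isomerase gene Pdi (0.16) and Xbp1 (0.15), a transcription factor of the unfolded protein response, followed. None reached the threshold, and the median detection difference was -0.02, with 6 genes above 0. Pdi was detected in 97.7% and 93.7% of cells of the combined depletion, against 96.3% and 92.8% in the control, which leaves the shares little room to differ. The ratios within the Med12 depletion library were similar for Hsc70-3 (0.42) and TRAM (0.40), and within the Cdk8-CycC depletion library they were 0.32 and 0.22.

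Most members of the metabolic lists lay above 0 by mean, beside 71.3% of all genes, while by detection the lists differed. All 8 compared glycolysis genes had a positive mean difference, with a median of 0.10, and Eno (0.27) and Gapdh1 (0.21) were the highest. By detection 5 of them lay above 0, with a median of 0.01. Ldh, lactate dehydrogenase, was detected in 40.0% and 17.2% of cells of the combined depletion, against 7.0% and 3.7% in the control. Both sets were higher in the depletion library, as were the median shares over all compared genes. The mean difference of 0.15 and the detection difference of 0.30 did not reach the threshold. Of 10 compared genes of lipid synthesis 9 lay above 0, with a median of 0.07 and a median detection difference of 0.15. FASN1, the fatty acid synthase, was detected in 58.9% and 27.5% of cells of the combined depletion, against 34.2% and 20.7% in the control, a detection difference of 0.37 that fell short of the threshold. AcCoAS, which makes acetyl-CoA from acetate, was detected in 18.8% and 5.8%, against 5.5% and 3.4% in the control, and its detection difference of 1.0 passed it. In lipid transport, the fatty acid binding gene fabp had a mean difference of 0.30 and the sterol transport gene Npc2a a detection difference of 0.53, while 3 of the list's 4 compared genes lay below 0 by detection. Oxidative phosphorylation had 26 of 32 genes above 0 by mean with a median of 0.04, but 26 of the 32 lay below 0 by detection, with a median of -0.03. UQCR-C2 (0.13) had the highest mean difference. The pentose phosphate and NADPH list had 4 of 5 genes above 0 by mean with a median of 0.06, and a median of -0.06 by detection. Men was its only member past the threshold.

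Growth and cell cycle genes had small differences of mixed size. In the list of G1-S and DNA replication 43 of 50 genes lay above 0, with a median of 0.04, and RnrL (0.21), a subunit of ribonucleotide reductase, and CycE (0.18), the G1-S cyclin, were the highest. In the G2-M list 36 of 45 genes lay above 0, with a median of 0.03, and the mitotic cyclin gene CycB (0.20) and the kinase gene polo (0.18) led. By detection 16 of the 50 and 15 of the 45 lay above 0, beside 40.1% of all genes. spn-E, a germline RNA helicase that the replication list holds, was the only member past the threshold, at a detection difference of 0.43. The TOR and insulin list had 7 of 9 genes above 0 with a median of 0.03, and scyl was its only member past the threshold. Cytoplasmic ribosomal protein genes lay on the other side, with 39 of 40 below 0 by mean and a median of -0.12, while 36 of the 40 lay above 0 by detection, with a median of 0.00. The mitochondrial ribosomal protein genes lay at the level of all genes by mean, with 47 of 63 above 0 and a median of 0.02. By detection 60 of the 63 lay below 0, with a median of -0.09. That sign depends on the scale. Among those below 0, mRpS9 (0.25), mRpL42 (0.39) and mRpL11 (0.31) lay above 0 by the odds ratio of the shares. Of 37 further cytoplasmic ribosomal protein genes listed for the combined depletion and not the control, 36 had a log2 ratio below 0. Their median was -0.11. Of all 992 genes so listed and detected, 320 had a ratio below 0. No member of either list reached the threshold by mean difference or detection difference.

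Lists of regional patterning genes lay on both sides of 0. Of 8 compared hinge genes 6 lay below 0, with a median mean difference of -0.14. By detection 5 of the 8 lay below 0, with a median of -0.06, beside -0.03 over all genes. Besides zfh2 the lowest by mean were ct (-0.24), a homeodomain factor, and wg (-0.23), the Wingless ligand. The detection difference of ct was 0.27, opposite in sign to its mean difference. wg was detected in 25.4% and 17.7% of cells of the combined depletion, against 22.2% and 14.6% in the control. Of 7 compared genes of the notum and the Iroquois complex 5 lay below 0, with a median of -0.09, and by detection 6 of 7 lay below 0, with a median of -0.37. eyg, its relative toe (-0.45) and ush (-0.38), a cofactor of the notum factor Pannier, were lower by detection, and ara, an Iroquois gene, was at -0.37. With the median of all genes subtracted ush lay at -0.35, short of the threshold. toe was found in 8.6% and 4.9% of cells of the combined depletion, against 12% and 5.0% in the control. The vein and intervein list had 4 of 7 genes above 0 by mean, with a median of 0.07, and 3 of 7 by detection, with a median of -0.08. The pouch list had only 3 compared genes, vg (0.24), ab (0.20) and nub (-0.16). vg, the wing selector gene, was detected in 74.9% and 51.2% of cells of the combined depletion, against 64.2% and 52.4% in the control. In the dorsal list 4 of 9 genes lay above 0 by mean, with a median near 0, and 2 of 9 by detection, with a median of -0.14. Its members vvl and mew were lower by size, as described above, and the others included ap (0.10), the Notch ligand gene Ser (0.22) and the glycosyltransferase gene fng, at -0.00.

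Pathway lists mostly lay close to the median of all genes, with single members farther out. Of 11 compared genes of Hedgehog signalling and the posterior compartment 9 lay above 0, with a median of 0.06. ptc, the Hedgehog receptor and a target of the pathway, had ratios of 0.22 in the combined depletion and -0.03 in the control, a difference of 0.25, and the ligand gene hh had a difference of 0.13. In the Dpp list, with 4 of 9 genes above 0 and a median of -0.03, the ligand gene dpp had a mean difference of 0.22 and a detection difference of 0.38 that passed the threshold. dpp was detected in 38.1% and 21.5% of cells of the combined depletion, against 26.5% and 19.5% in the control. The Wingless list had 5 of 11 genes above 0 and a median near 0. The Notch list had 9 of 15 above 0 and a median of 0.03, with E(spl)m4-BFM and E(spl)m8-HLH (-0.25) at the low end and Ser at the high end. In the EGFR list 6 of 12 lay above 0 with a median near 0. rho, the protease that releases EGFR ligands, was lower by detection at -0.38, with shares of 11.6% and 7.0% in the combined depletion against 13.6% and 6.3% in the control, and it lay at -0.35, short of the threshold, with the median of all genes subtracted.

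**Figure D5:**
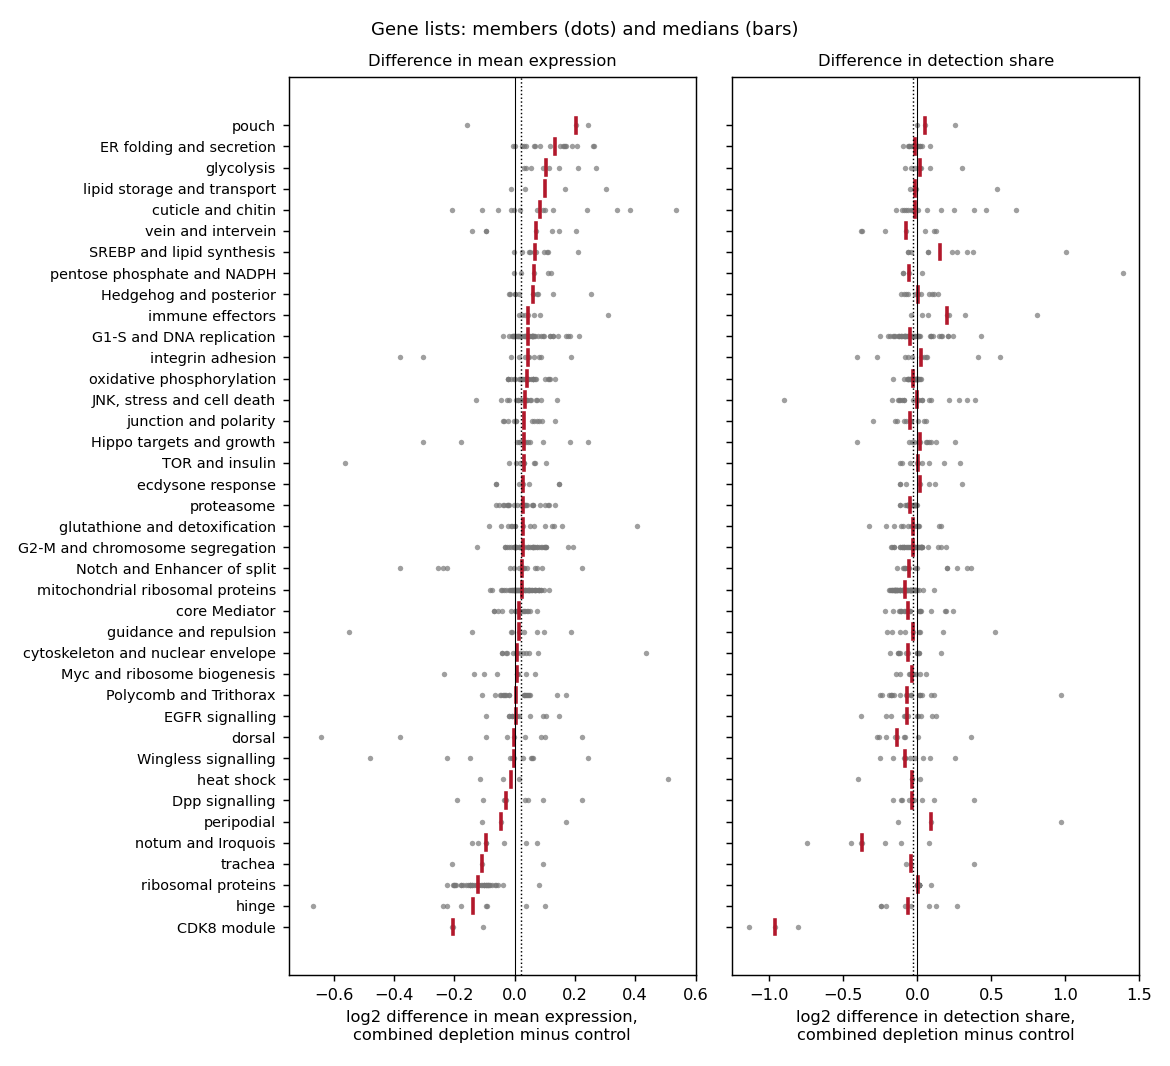
Mean difference (left) and detection difference (right), both log2 and combined depletion minus control, for the members (dots) of each list with at least 3 compared genes, with list medians (red bars). The dotted line is the median of all genes, 0.02 on the left and -0.03 on the right. Ribosomal proteins lie left of 0 in mean expression and at 0 in detection.

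The adhesion and cuticle lists held members in both directions, and the immune list lay above 0 by mean. Among 11 compared genes of integrin adhesion, 8 of them above 0, mew and wb were the lowest by mean, while the integrin subunit genes scb (0.56) and if (0.41) were higher by detection. if, the alpha subunit of ventral wing cells, was detected in 30.9% of the GFP-positive cells and 50.3% of the GFP-negative cells of the combined depletion, against 18.8% and 40.7% in the control. Of 14 compared cuticle and chitin genes 9 lay above 0, with a median mean difference of 0.08. Vajk2 and Cht10 were higher by mean, and Vajk2, Vajk3 and Gasp (0.38) were higher by detection. All 7 compared immune genes had a mean difference above 0, with a median of 0.05, and 6 of the 7 had a detection difference above 0, with a median of 0.20. grass, a serine protease of the Toll pathway, was the only one past the threshold, with 36.2% and 5.0% in the combined depletion against 11.6% and 2.8% in the control. Among stress genes of the JNK and cell death list 16 of 20 lay above 0 by mean with a median of 0.03, and 9 of 20 by detection with a median near 0. By detection Dark (0.39), the apoptosome gene, was higher and upd1 (-0.90) was lower. Of 4 compared heat shock genes 2 lay above 0 by mean, with a median of -0.01. By detection 1 of the 4 lay above 0, with a median of -0.04. Hsp23 was higher by mean, as described above, and Hsp70Bb was lower by detection, at -0.40.

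Markers of other cell types were few. Of 7 myoblast markers 2 were compared, Ama (-0.34) and ct (-0.24), and both are also expressed elsewhere in the disc. Of 4 glial markers 2 were compared. By mean both lay above 0, nrv2 at 0.06 and moody, a receptor of the glial barrier, at 0.07. By detection they had opposite signs, at -0.15 for nrv2 and 0.75 for moody. The shares of moody were 23.3% and 3.9% in the combined depletion, against 7.8% and 2.2% in the control. Of 3 compared peripodial markers Antp (0.17) lay above 0 by mean and puc (-0.04) and Ubx (-0.11) below, with a median of -0.04. Of 3 compared tracheal markers verm (-0.21) and serp (-0.11) lay below 0 and Gasp (0.09) above, with a median of -0.11. The Hox gene Ubx was detected in 88.1% and 18.6% of cells of the combined depletion, against 96.0% and 39.7% in the control. Its log2 ratios were 4.51 and 4.62, and its detection difference was 0.97. The ratios were 4.58 in the Med12 depletion library and 3.86 in the Cdk8-CycC depletion library. A setting given below leaves Ubx out with GFP, w and ap as transgene or driver genes. Whether Ubx marks peripodial cells here was not tested. The part of cells of other types in the differences was not tested either.

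Genes listed for only one of the libraries have no difference, and a gene left out of a table has no value there. The depletion table listed 1404 genes that the control table did not, 992 of them detected in at least 10% of cells of a set. Their median log2 ratio was 0.02, with 672 of the 992 above 0 and 320 below. None was higher in GFP-positive cells by 1.3-fold, which is 0%, and 12 were lower, which is 1.21%. The lowest were CG17278 (-0.84), the homeodomain factor gene hth (-0.58), the receptor gene drl (-0.53), the zinc finger gene elB (-0.50), ds (-0.48), corto (-0.46), the teneurin gene Ten-m (-0.46), CG13300 (-0.46), klu (-0.46), CG14301 (-0.45), the perilipin gene Lsd-2 (-0.44) and Toll-7 (-0.44). hth, ds and elB are hinge genes in the list used above. Within the combined depletion library hth was detected in 88.8% of the GFP-positive cells and 81.8% of the GFP-negative cells, and ds, the protocadherin Dachsous, in 85.8% and 81.4%. All 4 hinge genes of this group had a ratio below 0, beside 320 of its 992 genes. Within the Med12 depletion library hth stood at -0.58 and ds at -0.25. At the other end, alphaTub84B (0.36), the glutamate dehydrogenase gene Gdh (0.36), tna (0.35) and Cys (0.35) were below the threshold. Cys, a cysteine protease inhibitor, was detected in 32.8% of the GFP-positive cells and 7.8% of the GFP-negative cells. All 4 glycolysis genes and all 13 oxidative phosphorylation genes of this group had a ratio above 0, beside 672 of its 992 genes.

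The control table listed 551 genes that the depletion table did not, 452 of them detected in at least 10% of cells of a set. By size 1 was higher in GFP-positive cells, which is 0.221%, and none was lower, which is 0%. The higher gene was Ance (0.69), a peptidase related to angiotensin converting enzyme, detected in 21.9% of the GFP-positive cells and 17.2% of the GFP-negative cells. The lowest were frm (-0.38) and the heat shock gene Hsp68 (-0.35), just short of the threshold. All 10 mitochondrial genome transcripts in this group had a ratio below 0, between -0.28 and -0.17, and so did all 5 heat shock genes. Of the 452 genes of the group 188 had a ratio below 0 and 264 above.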

How the data were processed

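Single-cell RNA sequencing of L3 wing discs was deposited as 1 table per genotype, each holding the authors' contrast between GFP-positive cells and the GFP-negative cells of the same library. Per the submitters' processing notes, the tools were Cell Ranger 3.0.2 and Seurat. Genome build, cell filters and doublet treatment were not given in the sources used here. Coordinates are therefore left out. Cell numbers and depth are unknown, and no interval was computed.

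The deposited fold was read as a natural log of the ratio of means with a pseudocount of 1, as its column name in early Seurat releases implies, and it understates the change of low genes. The header names no base. The fold has no sign, which was taken from the deposited column naming the higher cell set. The deposited detection fraction of each set is printed in percent. The deposited p-value was computed by the authors over cells, and all listed p-values were below 0.01. It was not used, since cells are not replicates.

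Folds were converted to log2 and subtracted, control from combined depletion, over genes listed in both tables, with Python 3.11.15, pandas 2.3.3 and NumPy 2.4.6. A gene was counted at a factor of 1.3 if found in at least 10% of the cells of a set. The scripts were tested on simulated data. Genes named are the targeted genes, ap and GFP, the 15 highest and 15 lowest by mean, the 10 highest and 10 lowest by detection, list members past the threshold or the 3 farthest from 0, and the leading genes listed for one library. A few others, mostly list members that illustrate a count, were named after their values were seen. The members and lists were chosen with earlier results of these data known. Of the symbols in the lists, 18 matched no gene identifier and were left out.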

Additional observations from a re-analysis of the deposited data

Results flagged for a closer look

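For 8 genes the log2 ratio of means was on opposite sides of 0 in the combined depletion and the control while the difference passed the threshold. GFP-positive cells were lower in the combined depletion and higher in the control for scyl (-0.56), robo2 (-0.55), mamo (-0.48), nkd (-0.48) and E(spl)m4-BFM (-0.38). They were higher in the combined depletion and lower in the control for Hsp23 (0.51), Msp300 (0.44) and Cht10 (0.38). For 9 genes the same held for the share of cells with the gene detected. The share was the lower of the pair in GFP-positive cells of the combined depletion and the higher in the control for Cdk8 (-1.14), CycC (-0.96), kto (-0.81), CG42747 (-0.66) and CG3726 (-0.49). It was the higher in the combined depletion and the lower in the control for Esyt2 (1.2), sona (0.79), SK (0.77) and Gasp (0.38). With 1 library per genotype none of these differences was tested.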

How the results depend on the processing

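No paired analysis was possible because each genotype has 1 library, and for the same reason no replicate could be left out. The cause was not tested for any shift that a setting does not explain by its construction. By mean, 10 genes were higher and 10 lower. Reading the deposited fold as log2 gave 3 and 5, a fold of 1.5 gave 3 and 3, and a fold of 1.2 gave 26 higher. Without subtraction of the control 27 were higher, and GFP (4.28), Phk-3 (0.52) and mew (0.12) were then positive. With unlisted genes set to 0, 23 were lower. Leaving out GFP, w, Ubx and ap, handled as transgene or driver genes, gave 9 and 9 by mean and 112 and 33 by detection. By detection, 113 genes were higher and 33 lower. Without a detection minimum 60 were lower, with a minimum of 25% the counts were 66 and 13, with a factor of 1.2 they were 273 and 136, and with a factor of 1.5 they were 47 and 6. The odds ratio of the shares gave 875 higher, and Ubx was at -0.17 on that scale. Centred on the median of all genes, Cht10 (0.36) by mean and ush (-0.35), rho (-0.35) and Hsp70Bb (-0.37) by detection fell short of the threshold. Requiring 10% of GFP-negative cells in both libraries, a setting chosen after seeing the data, gave 43 and 11. Of 39 lists, 29 had a median above 0 and 10 below. By detection the counts were 11 and 28, and centred on the median of all genes 16 were below. The base of the logarithm, the unknown number of cells and the absence of replicates limit every value.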

Other observations

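Of 165 genes past the threshold on either measure, 156 were found by symbol in a reference table of fly genes (assembly Release 6 plus ISO1 MT), and 4 pairs of them were direct neighbours there. Vajk2 and Vajk3 on chromosome arm 2L were both positive, with mean differences of 0.54 and 0.34. The related notum genes toe and eyg on arm 3L had detection differences of -0.45 and -0.75. PolQ and Men on arm 3R had detection differences of 0.50 and 1.39. On the X chromosome upd1 (-0.90) and CG6023 (0.74) lay next to each other with opposite signs. Reads of neighbouring genes can be shared where transcripts overlap, which was not tested.

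The deposited signed fold of the combined depletion table was blank for 853 genes, from row 5525 to the end, and the control table has 5524 rows. The sign used here came from another column and was present for every gene.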
